A study of Strongylocentrotus purpuratus with 4 samples.

Results

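Cells outside the pigment lineage were compared between gastrulae of the purple sea urchin, Strongylocentrotus purpuratus, injected with a morpholino antisense oligonucleotide (MO) against gcm and gastrulae injected with a control MO. A cell was kept when UMIs (unique molecular identifiers, 1 per captured transcript) of 400 to 2500 genes had been counted in it. It was then dropped as a pigment cell when the UMIs of gcm, pks1 (LOC588806), sult1c2 (LOC592500) and fmo5-1 (LOC588371) summed to at least 3 and to at least 0.3% of all its UMIs. This left 3118 cells of the control MO library and 533 of the gcm MO library, together 3651 of the 17911 deposited cells of 4 libraries. Both MO libraries were made from whole embryos at 48 h post fertilization (hpf) that had received an MO at 0.5 mM as zygotes, in sea water with 3-AT, and both were sequenced in 1 lane. The control MO was designed against a gene of another echinoderm, the sea star Patiria miniata. Embryos were pooled only if they showed the expected phenotype, for the gcm MO a straight gut without pigment, and the study describes the gcm MO cells as prone to lysis on dissociation. The 2 other libraries came from uninjected embryos at 48 and 72 hpf whose ectoderm had been enriched, so their levels, taken from cells chosen by the same rule, are given only for orientation.

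Gcm is a transcription factor that specifies pigment cells, a derivative of the non-skeletogenic mesoderm. The rest of the gastrula consists of aboral and oral ectoderm with a ciliary band between them, an apical neural region, the gut, the skeletogenic mesenchyme that lays down the calcite spicules, and further mesodermal cells. The comparison addresses which transcripts of these other cells differ between embryos injected with the gcm MO and with the control MO. With 1 library per MO, no test across samples was possible. Intervals given here are 95% intervals that cover the counting of UMIs or cells only, and the effects of the MO, the pool of embryos and the library cannot be told apart. In summed counts, fewer cells of a type and less RNA per cell cannot be told apart. Pairs of values are given for the control MO first and the gcm MO second, and a ratio is always that of gcm MO over control MO.

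The targeted transcript was rarer in the gcm MO library. Over all deposited cells, gcm gave 261 UMIs in the control MO library, 27.6 counts per 1000000 (CPM, exact Poisson interval 24.4 to 31.2), and 10 UMIs in the gcm MO library, 4.35 CPM (2.09 to 8.0). The uninjected libraries held 35.3 CPM at the earlier and 37.0 CPM at the later stage. Of the cells with 400 to 2500 genes, the pigment rule dropped 205 of 3323 control MO cells (6.17%, Clopper-Pearson interval 5.37 to 7.04) and 6 of 539 gcm MO cells (1.11%, 0.410 to 2.41). These values check the labels and describe what was removed. The MO blocks translation, and the study reports gcm expression as unchanged in its pigment cell cluster. Less gcm RNA per cell and fewer gcm-bearing cells cannot be told apart in the CPM over all cells. Just outside the rule, 26 control MO cells and 0 gcm MO cells had 3 or more UMIs of the 4 genes but too low a share, and 1 cell of each library had the share with 2 UMIs. The kept cells still held 76.7 and 21.5 CPM of the 4 genes.

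The kept cells held 8862874 and 1809784 UMIs, and the libraries shared 1 kept barcode. The median cell had 2714 and 3844 UMIs, but the gcm MO cells were spread more widely. Cells with fewer than 1000 UMIs were 3.53% and 25.3% of cells and held 0.952% and 5.15% of the UMIs. At the other end, 10 of 3402 and 48 of 643 deposited cells had more than 2500 genes and were left out. Depth also went with the share of cells past a marker gate, which is no cell type, and not in the same way in both libraries. Cells past a gate for the gut transcript Endo16 (defined with the gut genes) were 2.07% of the control MO cells with 1000 to 2000 UMIs and 33.1% of those with 5000 or more, against 17.5% and 10.3% in the gcm MO library. The 17.5% was the peak, from 63 cells, and the other gcm MO bins below 5000 UMIs lay between 5.75% and 9.26%. The part of depth in the results was not tested beyond the alternatives named with them.

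**Figure D1:**
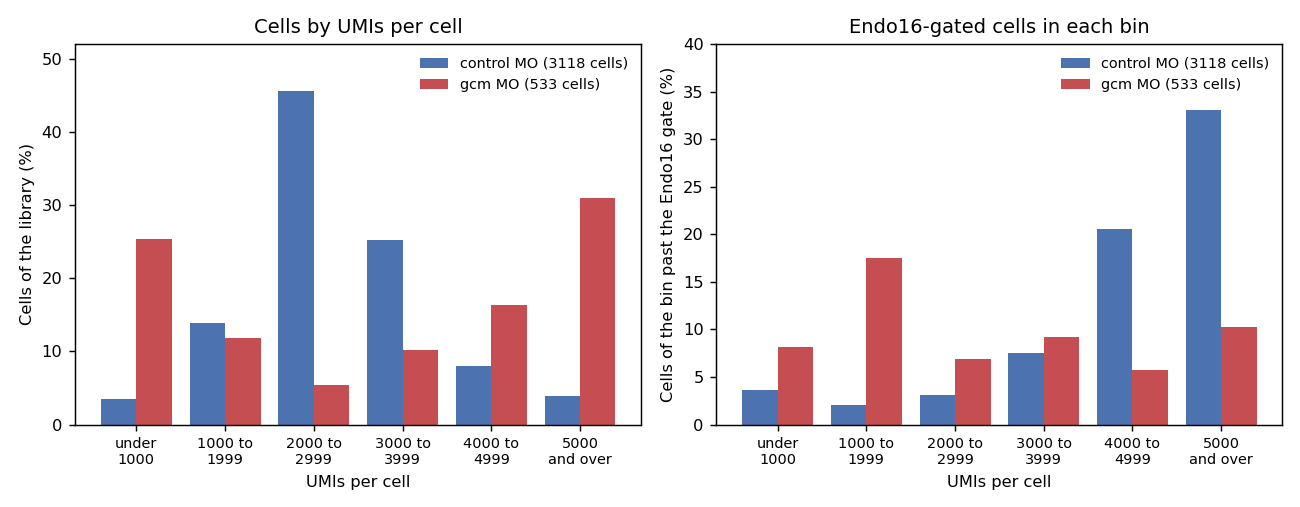
Kept cells by UMIs per cell. Left, percent of the cells of each library (y axis) by UMIs per cell (x axis): 45.5% of control MO cells lie between 2000 and 3000 UMIs, and gcm MO cells peak under 1000 (25.3%) and at 5000 or more (31.0%). Right, percent of the cells of each bin past the Endo16 gate, which reaches 33.1% in the deepest control MO cells; each bar is 1 library.

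Of 5152 genes tested, those to which both MO libraries gave 200 or more UMIs in all, 306 (5.94%) had a CPM ratio of at least 2 and 245 (4.76%) a ratio of at most 0.5. The median ratio was 1.1 (0.14 on the log2 scale). The split depended on the scaling, since edgeR's TMM factors divide every ratio by 1.24 and left 105 genes higher and 450 lower, and DESeq2 size factors left 108 and 448. Of the 109 genes with enough UMIs that are examined by name, 16 had a ratio above 1 that was 1 or below with TMM, so ratios between 1 and 1.24 give no direction. Of 168 genes at 1000 CPM or more in the control MO library, 23 were at least 2-fold lower and 5 at least 2-fold higher. Of 2494 genes under 50 CPM there, 92 were lower and 217 higher. The control MO level that sets these groups also divides the ratio, which tilts the groups in advance. A gene low in the control MO library also needs gcm MO UMIs to reach 200. The splits are therefore no result about abundance.

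The uninjected libraries, which were enriched for ectoderm, are set beside these differences for orientation only. At 48 hpf, the uninjected level, compared on log2(CPM + 1), was nearer to the gcm MO than to the control MO library for 174 of the 245 lower genes (71.0%) and for 108 of the 306 higher genes (35.3%), against 2620 of all 5152 (50.9%). At 72 hpf the shares were 74.3%, 33.3% and 47.8%. The uninjected level at 48 hpf lay between those of the MO libraries for 111 of the 245 lower and 204 of the 306 higher genes, against 1366 of all 5152. Across 5095 genes, the log2 ratio of the MO libraries and that of 72 over 48 hpf had a Pearson r of 0.00546 and a Spearman rho of 0.0327, which describes genes of the same libraries and not replicates.

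**Figure D2:**
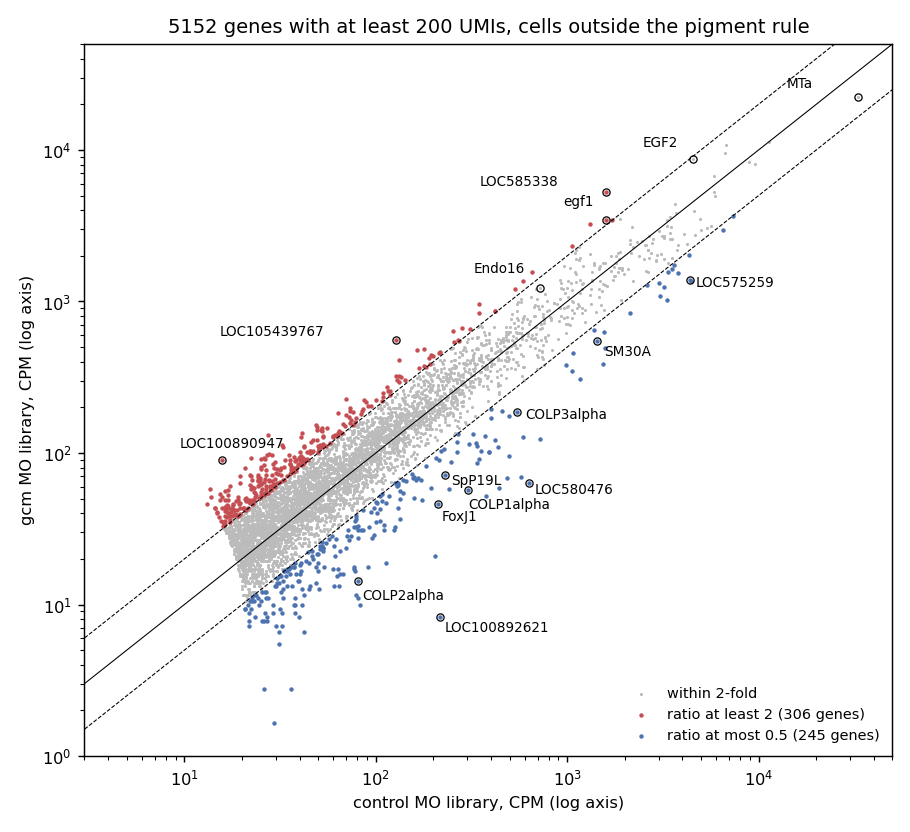
CPM of 5152 genes in the control MO (x axis) and gcm MO (y axis) libraries, both on log axes, 1 point per gene, with equal CPM as a solid line and 2-fold as dashed lines. Of these, 245 genes lie on or below the lower dashed line, among them SM30A, the labelled collagens, FoxJ1 and LOC580476, and 306 on or above the upper one, among them egf1, LOC585338 and LOC105439767.

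Skeletogenic transcripts were lower in the gcm MO library. These genes encode the matrix of the spicule and surface proteins of the cells that secrete it. Of the 9 entries in the files, 6 reached 200 UMIs, and all 6, against 2053 of all 5152 tested genes, had a ratio below 1. At least 2-fold lower were 5 of them, against 4.76% of all tested genes, and their median was -1.47 on the log2 scale, against 0.14. SM30A, a spicule matrix protein gene and the most abundant of the list, had 1439 CPM (1414 to 1464) in the control MO library and 548 CPM (514 to 583) in the gcm MO library, a ratio with its exact conditional interval of 0.381, 0.356 to 0.406. The uninjected libraries had 653 CPM and 209 CPM, so both lay nearer to the gcm MO. Both were enriched for ectoderm, and this nearness cannot be told apart from the enrichment. At 48 hpf, 0.576% of uninjected cells passed the skeletogenic gate described below, against 1.86% of control MO cells.

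The surface glycoprotein gene msp130 had 59.8 and 17.1 CPM (0.286, 0.193 to 0.412) and 15.3 CPM in uninjected embryos at 48 hpf. SpP19L, named for a small protein of these cells, had 229.9 and 71.8 CPM (0.312, 0.260 to 0.373) and 82.2 CPM at that stage without injection. For both, the control MO level was the highest of the 4 libraries, but the uninjected ones were enriched for ectoderm. The matrix protein gene PM27 had 80.9 and 27.6 CPM (0.342, 0.251 to 0.455), SM37 had 52.6 and 24.3 CPM (0.462, 0.331 to 0.631) and SM50 had 63.2 and 40.3 CPM (0.638, 0.493 to 0.816). Uninjected embryos at 48 hpf had 66.4, 56.0 and 52.8 CPM of these 3. The gcm MO library was thus the lowest of the 48 hpf libraries for all 3, as it was for SM30A. Alx1, the homeodomain regulator of the skeletogenic network, had 155 and 9 UMIs (0.284, 0.128 to 0.554). P16, a transmembrane protein needed for rod growth, had 79 and 0 UMIs, and with 3 UMIs taken as the limit that a count of 0 allows in the gcm MO library it was at least 5.38-fold lower. SM29 had 8 and 0 UMIs, too few to compare.

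The difference came with fewer cells that carry these transcripts. A cell was gated as skeletogenic when the listed genes gave at least 3 UMIs and 0.3% of its UMIs. Such cells were 58 of 3118 and 3 of 533, or 1.86% (1.42 to 2.40) and 0.563% (0.116 to 1.64). With each cell thinned to 1000 UMIs, which left out 110 and 135 shallower cells, they were 1.80% (1.35 to 2.34) and 0.251% (0.00636 to 1.39). The gated cells held 92.7% and 89.6% of the skeletogenic UMIs of their libraries, and these genes made up 9.64% and 14.6% of their UMIs. The gcm MO values rest on 3 cells of 748 to 6413 UMIs, so the level per skeletogenic cell could not be compared.

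Outside the gate these genes summed to 146 and 76.6 CPM. SM30A gave a UMI in 23.0% and 11.1% of cells outside the gate, and in 20.8% and 17.6% of Endo16-gated cells, which should lack it and whose median depths were 3810 and 3325 UMIs. The source of these UMIs outside the gate was not tested. With the gated cells left out, the ratios were 0.400 for SM30A, 0.585 for SpP19L, 0.617 for PM27 and 0.423 for msp130, but 1.19 for SM37 and 1.19 for SM50. With the gcm MO cells reweighted to the control MO shares of the gates, which leans on the 3 cells, the ratio of SM30A was 1.19 and the median of the list 0.05 on the log2 scale. In 16 alternative settings the ratios of msp130, PM27 and SpP19L stayed below 1, at most 0.838, 0.947 and 0.910, and those of SM30A, SM37 and SM50 reached 1.19, 1.19 and 1.81.

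Over all kept cells, collagen transcripts were lower too, but not within every gate. COLP1alpha and COLP2alpha encode fibrillar chains, COLP3alpha and COLP4alpha chains of basement membrane collagen. All 4 entries with 200 UMIs were at least 2-fold lower (4.76% of all tested genes were), with a median of -1.98 on the log2 scale. COLP1alpha had 304 CPM (292 to 315) in the control MO library and 56.9 CPM (46.5 to 69.0) in the gcm MO library (ratio 0.187, 0.152 to 0.228). In uninjected embryos it stood at 310.4 CPM at the earlier stage and 124 CPM at the later. COLP2alpha had 81.1 CPM (75.3 to 87.3) and 14.4 CPM (9.38 to 21.1) in the MO libraries (ratio 0.177, 0.115 to 0.262), and 80.4 and 31.3 CPM without injection. For both fibrillar genes the gcm MO library was the lowest of the 4, and the 48 hpf uninjected library lay at the level of the control MO.

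The fibrillar collagens were found outside the skeletogenic cells. Of their control MO UMIs, 92.6% of COLP1alpha and 97.6% of COLP2alpha lay in cells past no tissue gate (skeletogenic, Endo16 or ARS), and 0.372% and 0.139% in the skeletogenic gate. Cells to which both genes gave 3 UMIs and 0.3% of UMIs, a rule set after values were seen, were 59 of the control MO library (1.89%, 1.44 to 2.43), 3 of the gcm MO library (0.563%, 0.116 to 1.64) and 102 of the uninjected 48 hpf library (2.18%). Outside them both genes summed to 47.0, 35.4 and 39.1 CPM. In the control MO library these cells held 331 CPM of erg, an ETS factor of mesoderm, against 16.7 CPM elsewhere, and 7039 against 431 CPM of COLP3alpha. In the uninjected library at 48 hpf, erg stood at 405 against 12.5 CPM. The cells are given no name.

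COLP3alpha had 546 and 186 CPM (0.341, 0.305 to 0.381) and COLP4alpha, in the better covered of its 2 entries, 145 and 65.8 CPM (0.455, 0.374 to 0.549). Of their control MO UMIs, 68.2% and 69.1% lay in skeletogenic cells, without which the ratios were 0.722 and 0.683. Among Endo16-gated cells both were higher with the gcm MO. There COLP3alpha had a ratio of 8.0, 5.48 to 11.8, from 46 and 77 UMIs, and COLP4alpha of 8.69, 3.97 to 20.1, from 11 and 20 UMIs. Among ARS-gated cells COLP2alpha had 3.65, 1.34 to 9.70, from 11 and 9 UMIs, and COLP3alpha 1.42, 0.950 to 2.09. For COLP1alpha the ratio was below 1 in the Endo16-gated (0.281, 0.0327 to 1.1), ARS-gated (0.573, 0.340 to 0.915) and ungated cells (0.167, 0.133 to 0.209). COLP3alpha was met in 7.28% and 7.04% of cells at 1000 UMIs per cell, close shares beside a lower CPM. With CPM averaged over cells, the ratios of COLP1alpha and COLP2alpha were 0.488 and 0.416.

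FoxJ1, the regulator of motile cilia, was lower in the gcm MO library but stood there at the level of uninjected embryos. It had 210.2 CPM (201 to 220.0) in the control MO library and 45.9 CPM (36.5 to 56.9) in the gcm MO library, a ratio of 0.218, 0.173 to 0.272. The uninjected libraries had 41.4 and 50.2 CPM, so the control MO library alone was high. At 1000 UMIs per cell, FoxJ1 was met in 18.3% and 4.77% of cells. Its ratio was 0.165 among ARS-gated cells and 0.274 among cells past no gate, and between 0.176 and 0.285 in 16 alternative settings. The kinesin-2 subunit genes, whose motor carries cargo along cilia, lay on the other side of 1. KRP85 had 32.8 and 55.8 CPM (1.70, 1.34 to 2.14), KRP95 had 37.9 and 61.3 CPM (1.62, 1.29 to 2.01) and kap115 had 21.6 and 30.4 CPM (1.41, 1.03 to 1.91).

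The lowest ratios belonged to genes known only by a LOC identifier, of whose products nothing is said. LOC100892621 had 217 and 8.29 CPM (0.0382, 0.0213 to 0.0632), and 11.4 and 20.4 CPM without injection. LOC580476 had 629 and 63.5 CPM (0.101, 0.0832 to 0.121), against 53.9 and 93.0 CPM. LOC590003 had 575 and 69.6 CPM (0.121, 0.101 to 0.145), against 69.3 and 127 CPM. As with FoxJ1, the control MO library alone was high for these 3. LOC580476 and LOC590003 were met in 42.7% and 6.53% and in 42.2% and 7.29% of cells at 1000 UMIs.

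The other 7 of the 10 genes with the lowest ratios were LOC100889589 (0.0565), LOC100891737 (0.0765), LOC584671 (0.104), LOC586858 (0.106), LOC588827 (0.120), LOC100893493 (0.134) and LOC763417 (0.138). The control MO level was again the highest of the 4 libraries for 6 of them. LOC586858 was the exception, with 26.0 and 2.76 CPM in the MO libraries and 67.0 and 58.5 CPM in the uninjected ones. All 10 kept a ratio of at most 0.5 in each of the 16 alternative settings.

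**Figure D3:**
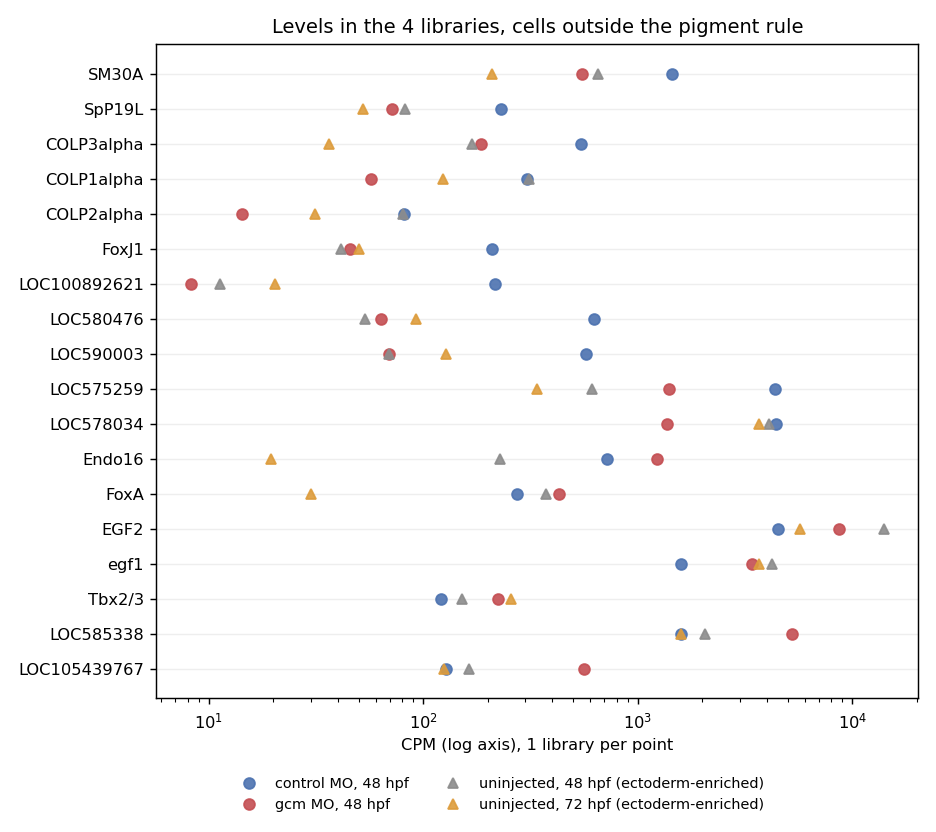
CPM (x axis, log) of 18 genes (y axis) in the 4 libraries, 1 point per library, circles for the MO and triangles for the uninjected libraries. For FoxJ1, LOC100892621, LOC580476 and LOC590003 the control MO point is the highest, for COLP1alpha and COLP2alpha the gcm MO point is the lowest (56.9 and 14.4 CPM), and for LOC585338 and LOC105439767 the gcm MO point is the highest (5239 and 559.7 CPM).

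Some low ratios were met in more than 1 set of cells. LOC580476 had a ratio of 0.0839 in Endo16-gated, 0.123 in ARS-gated and 0.0790 in ungated cells, and LOC590003 of 0.133, 0.116 and 0.124. Of the 245 lower genes, 226 had 20 UMIs or more in both the ARS-gated and the ungated cells, and 144 of these were at least 2-fold lower in both. Of the 306 higher genes, 300 had as many, and 161 were at least 2-fold higher in both. Of all tested genes with as many UMIs there, 3.01% were that much lower and 3.36% that much higher in both. The Endo16-gated cells were fewer. With 20 UMIs in that gate, 99 of 164 lower and 79 of 148 higher genes were past 2-fold in it, and of those with 20 UMIs in each of the 3 sets, 67 of 160 lower and 34 of 145 higher genes were past 2-fold in all 3. Of all tested genes with as many UMIs, 8.14% were that much lower and 10.5% higher in the Endo16 gate. In all 3 sets the shares were 1.73% and 0.878%. These counts use the cells that gave the ratios over all cells and are a description.

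The largest losses in CPM concerned abundant transcripts. MTa, a metallothionein gene of the aboral ectoderm, had 33142 and 22245 CPM (0.671, 0.664 to 0.678), and 28048 and 85882 CPM without injection. LOC586345 had 7326 and 3662 CPM (ratio 0.500), at the 2-fold threshold, and LOC590740 had 6488 and 2942 CPM (0.453). LOC578034 had 4411 and 1369.8 CPM (0.311, 0.298 to 0.323) and LOC575259 had 4355 and 1394 CPM (0.320, 0.307 to 0.333). In uninjected embryos at 48 hpf the first 3 of these LOC genes had 6911, 5202 and 4074 CPM, nearer to the control MO, whereas LOC575259 had 611 CPM, below both. LOC578034 was met in 95.5% and 67.6% of cells at 1000 UMIs and had ratios of 0.370, 0.271 and 0.318 in Endo16-gated, ARS-gated and ungated cells.

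Ribosomal protein, histone and chaperone genes found by symbol had these levels. The ribosomal protein genes were rps15a, with 4941 and 3508 CPM (0.710), rps14, with 2743 and 2073 CPM (0.756), and rpl36, with 2463 and 2519 CPM (1.02, in the range that gives no direction). The histone variant gene H2A.F/Z had 4217 and 2379 CPM (0.564, 0.547 to 0.582) and 2299.5 CPM in uninjected embryos at 48 hpf. Gp96, a chaperone of the endoplasmic reticulum, had 40.6 and 16.6 CPM (0.408, 0.271 to 0.593). The chaperone gene hsp110 had 311 and 299 CPM (0.964, 0.877 to 1.06), both above the 103 CPM of uninjected embryos at 48 hpf.

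Over all kept cells, gut transcripts had ratios above 1, but the direction depended on which cells were counted. All 4 gut genes with 200 UMIs had a ratio above 1, none of at least 2 (5.94% of all tested genes had one), and their median was 0.54 on the log2 scale. Of all 5152 tested genes, 3099 had a ratio above 1, and the median of all was 0.14. Endo16, a secreted protein of the gut, had 718 CPM (700.2 to 736) in the control MO library and 1224 CPM (1174 to 1277) in the gcm MO library (ratio 1.71, 1.62 to 1.79). FoxA, a forkhead regulator of endoderm, had 273 and 428 CPM (1.57, 1.44 to 1.70), blimp1/krox, an endomesoderm regulator, 107 and 144 CPM (1.34, 1.17 to 1.54), and GATAe, an endoderm regulator, 92.1 and 97.8 CPM (1.06, 0.898 to 1.25), which lies in the range that gives no direction. In the ectoderm-enriched uninjected library at 48 hpf, Endo16 had 228 CPM and FoxA 375 CPM. Below 200 UMIs, the homeobox gene eve had 108 and 72 UMIs (3.26, 2.39 to 4.44) and lox 18 and 8 UMIs. These UMIs are raw counts from libraries of unequal size.

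Cells past the Endo16 gate, 3 UMIs and 0.3% of UMIs from Endo16, were 207 of 3118 and 51 of 533, or 6.64% (5.79 to 7.57) and 9.57% (7.21 to 12.4), and 6.55% (5.69 to 7.49) and 11.1% (8.15 to 14.6) at 1000 UMIs per cell. Within them FoxA had 925 and 2031 CPM (2.19, 1.93 to 2.50), blimp1/krox 846 and 1115 CPM (1.32, 1.12 to 1.55) and GATAe 596 and 700.5 CPM (1.18, 0.955 to 1.44). Returning the cells with more than 2500 genes, of which 6 and 18 were past the gate, gave the 4 genes a median of 1.06 on the log2 scale. Weighting the control MO cells to the UMIs per cell of the gcm MO gave -0.72, with ratios of 0.690 for Endo16, 0.461 for GATAe, 0.533 for blimp1/krox and 1.24 for FoxA, so that the median and 3 of the 4 genes were reversed. That setting leans on the 111 and 73 control MO cells in the 2 deepest of 5 bins and on the 70 in the shallowest. Thinning to 1000 UMIs, another way to match depth, gave a median of 0.76.

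**Figure D4:**
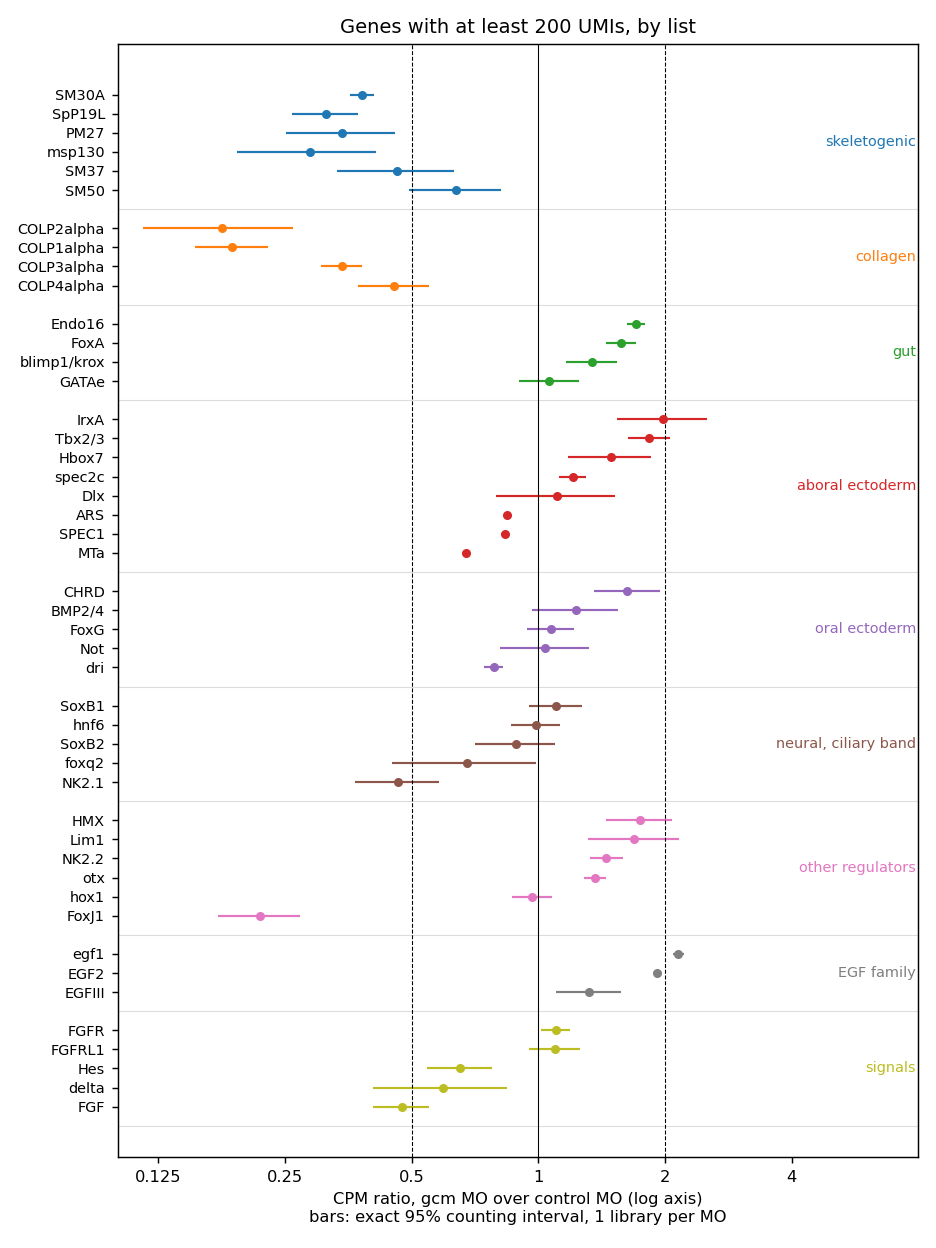
CPM ratio of gcm MO over control MO (x axis, log) for genes with at least 200 UMIs (y axis), by list. Points are ratios, bars exact 95% counting intervals from 1 library per MO, and dashed lines mark 2-fold; all 6 skeletogenic and 4 collagen genes lie below 1, all 4 gut and 3 EGF family genes above 1 (GATAe below 1 with TMM), and ectodermal genes on both sides.

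None of the 8 aboral ectoderm genes with 200 UMIs passed 2-fold (10.7% of all tested genes did). ARS, an arylsulfatase gene, had 9556 and 8036 CPM (0.841, 0.826 to 0.856) and SPEC1, a calcium-binding protein gene, 5949 and 4959 CPM (0.834, 0.815 to 0.852). The T-box gene Tbx2/3 had 122 and 223 CPM (1.84, 1.63 to 2.06), the Iroquois gene IrxA 26.3 and 51.9 CPM (1.98, 1.54 to 2.52) and the homeobox gene Hbox7 38.4 and 56.9 CPM (1.48, 1.18 to 1.85). Dlx and spec2c had ratios of 1.11 and 1.21, within the range that the scaling moves across 1. In uninjected embryos at 48 hpf, Tbx2/3, IrxA and Hbox7 had 152, 36.0 and 77.2 CPM. Cells with at least 3 UMIs and 1% of UMIs from ARS, the ARS gate, were 1244 of 3118 and 189 of 533, or 39.9% (38.2 to 41.6) and 35.5% (31.4 to 39.7). Within them SPEC1 had a ratio of 0.740, MTa of 0.615 and Tbx2/3 of 2.49. With depth matched by weighting, SPEC1 and ARS had ratios of 1.03 and 1.06, and Tbx2/3 of 1.97.

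Over all kept cells, the 3 EGF family genes had ratios above 1, as had 3099 of all 5152 tested genes. Of the 3, 1 was at least 2-fold higher (5.94% of all tested genes were). The genes egf1 and EGFIII encode fibropellins, EGF-repeat proteins of the apical lamina around the embryo, and EGF2 encodes secreted EGF-like peptides. Of egf1 there were 1594 and 3427 CPM (2.15, 2.09 to 2.21), of EGF2 4528 and 8655 CPM (1.91, 1.88 to 1.95) and of EGFIII 69.2 and 91.2 CPM (1.32, 1.1 to 1.57). The ratio of egf1 was 1.74 with TMM, and it stayed at 2 or more in 11 of 16 alternative settings. Uninjected embryos at 48 hpf had 4221, 14042 and 60.2 CPM, so for egf1 and EGF2 the control MO level was the lowest of the 4 libraries. In ARS-gated and ungated cells egf1 had ratios of 2.09 and 2.06, and EGF2 of 1.90 and 1.74. Among Endo16-gated cells the ratios were 1.25 for egf1 and 0.881 for EGF2. A test of the difference between gates was not possible.

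None of the 5 oral ectoderm genes with 200 UMIs passed 2-fold (10.7% of all tested genes did). CHRD, the BMP antagonist chordin, had 57.1 and 92.8 CPM (1.63, 1.36 to 1.94) and the ligand gene BMP2/4 41.9 and 51.4 CPM (1.23, 0.967 to 1.54). The transcription factor genes FoxG and Not had ratios of 1.07 and 1.04, and dri, with 1079.8 and 845 CPM, of 0.782. CHRD was met in 4.52% and 3.77% of cells at 1000 UMIs, so its higher CPM was not matched by a higher share of cells with a UMI. With CPM averaged over cells its ratio was 2.1. With depth matched by weighting, the ratio was 2.71 for CHRD, 1.76 for Not and 1.65 for FoxG, and the median of the list 0.76 on the log2 scale. Thinned to 1000 UMIs per cell, CHRD had a ratio of 1.08 and Not of 0.816. With CPM averaged over cells FoxG had 0.820, so these ratios depended on the setting.

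Of the 5 neural and ciliary band genes, 1 was at least 2-fold lower (4.76% of all tested genes were). NK2.1, a homeobox gene of the apical plate, had 101 CPM (94.6 to 108) in the control MO library and 47.0 CPM (37.5 to 58.1) in the gcm MO library (ratio 0.465, 0.367 to 0.581), and 148 CPM in uninjected embryos at 48 hpf. The apical forkhead gene foxq2 had 25.4 and 17.1 CPM (0.675, 0.448 to 0.985), against 64.8 CPM. The gcm MO library was thus the lowest of the 48 hpf libraries for both. The ciliary band gene hnf6 had 152 and 149.7 CPM (0.985, 0.861 to 1.12), and the ectodermal genes SoxB1 and SoxB2 had ratios of 1.1 and 0.883. With depth matched by weighting, the ratio was 0.665 for NK2.1 and 1.09 for foxq2. Thinned to 1000 UMIs per cell, foxq2 had a ratio of 0.344, so its value depended on how depth was matched.

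Of the 15 homeobox and forkhead genes with 200 UMIs, which include several named above, FoxJ1 and NK2.1 were at least 2-fold lower and none higher, with a median of 0.15 on the log2 scale. Over all tested genes 4.76% were lower and 5.94% higher, with a median of 0.14. HMX had 53 and 92.3 CPM (1.74, 1.45 to 2.08), Lim1 28.8 and 48.6 CPM (1.69, 1.31 to 2.16), NK2.2 245 and 355 CPM (1.45, 1.33 to 1.58), otx 552 and 751 CPM (1.36, 1.28 to 1.45) and hox1 232 and 224 CPM (0.966, 0.866 to 1.07). At 1000 UMIs per cell Lim1 was met in 2.99% and 3.02% of cells and HMX in 4.75% and 8.04%.

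Among the signalling genes, the ligand gene FGF had 218 CPM (209 to 228) in the control MO library and 103 CPM (89.0 to 119) in the gcm MO library (ratio 0.473, 0.405 to 0.550), and 154 CPM in uninjected embryos at 48 hpf. Skeletogenic cells held 20.6% of its control MO UMIs, and without them the ratio was 0.550. The receptor genes FGFR and FGFRL1 had ratios of 1.1 and 1.09. The Notch ligand gene delta had 32.6 and 19.3 CPM (0.593, 0.405 to 0.844), and Hes, named for a family of repressors that act downstream of Notch, 124 and 80.7 CPM (0.651, 0.544 to 0.774). The Wnt pathway genes found by symbol stayed below 200 UMIs, with 26 and 16 UMIs of Wnt8, 120 and 12 UMIs of wnt1 and 84 and 16 UMIs of SFRP. These are raw counts from libraries of 8862874 and 1809784 UMIs, so the pairs cannot be read as levels.

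Markers of other mesoderm and of the germ line were sparse. The germ line helicase gene vasa had 45.4 and 69.6 CPM (1.53, 1.25 to 1.88), and erg had 22.1 and 13.8 CPM (0.625, 0.395 to 0.950), or a ratio of 0.965 without the skeletogenic cells. GATAc had 155 and 14 UMIs and Nanos2 14 and 1 UMIs, raw counts from libraries of unequal size. None of the 9 immune entries reached 200 UMIs. Of 5 ABC transporter genes, ABCB1 did, with 277 and 301 CPM (1.08, 0.987 to 1.19).

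The cell cycle genes had no common direction. Of 24 genes that the study lists for dividing pigment cells, 23 had 200 UMIs, 11 with a ratio above 1 and 12 below, none past 2-fold, with a median of -0.04 on the log2 scale. Of all 5152 tested genes, 3099 had a ratio above 1 and 10.7% were past 2-fold, with a median of 0.14. The DNA polymerase alpha catalytic subunit gene (LOC584095) had 24.8 and 47.0 CPM (1.89, 1.46 to 2.44), structural maintenance of chromosomes protein 2 (LOC574836) 33.8 and 64.1 CPM (1.89, 1.51 to 2.35), and anillin (LOC590990), which acts in the cleavage furrow, 32.2 and 52.5 CPM (1.63, 1.28 to 2.07). At the other end, the mitotic kinase gene cdk1 (LOC575965) had 713 and 477 CPM (0.670, 0.623 to 0.719) and cyclin B (LOC576779) 166 and 138 CPM (0.829, 0.722 to 0.949). Cells in which the list made up at least 0.6% of UMIs were 26.9% (25.4 to 28.5) and 28.3% (24.5 to 32.4), and 26.7% (25.1 to 28.3) and 27.1% (22.8 to 31.8) at 1000 UMIs per cell. The cells with more than 2500 genes were past this gate in 3 of 10 and 37 of 48 cases, and with them the median of the list was 0.20.

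The highest ratios also belonged to LOC genes. LOC100890947 had 15.8 and 89.5 CPM (5.67, 4.49 to 7.16), but a ratio of 2.19 among cells with at least 1000 UMIs and of 18.9 with CPM averaged over cells, so its size rests in part on shallow cells. LOC105439517 likewise had 3.66 over all cells and 1.89 in the deeper ones. LOC577528 had 27.3 and 132 CPM (4.84, 4.03 to 5.81) and LOC105439767 127 and 559.7 CPM (4.39, 4.03 to 4.78), with 5.01 and 4.49 in the deeper cells. Without injection LOC577528 had 29.0 and 16.5 CPM and LOC105439767 163 and 124.6 CPM, so the gcm MO library alone was high. LOC105439767 was met in 11.4% and 41.2% of cells at 1000 UMIs. The other 6 of the 10 genes were LOC105436646 (4.29), LOC763537 (4.15), LOC577374 (3.85), LOC575371 (3.73), LOC587473 (3.61) and LOC584364 (3.60). Thinned to 1000 UMIs per cell, LOC100890947, LOC105439517 and LOC105436646 had ratios of 1.85, 1.79 and 1.98, below 2-fold, and with CPM averaged over cells LOC105436646 had 8.43.

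The largest gain in CPM was that of EGF2. LOC100888959 followed with 6785 and 10727 CPM (1.58) and LOC585338 with 1587 and 5239 CPM (3.30, 3.22 to 3.39). LOC585338 had 2067 and 1587 CPM without injection, so here too the gcm MO library alone was high, and it was met in 67.3% and 90.5% of cells at 1000 UMIs. Its ratios were 2.48 in Endo16-gated, 2.59 in ARS-gated and 4.04 in ungated cells. LOC100890099 had 6656 and 9538 CPM (1.43) and LOC100888594 1317 and 3259.5 CPM (2.48).

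**Figure D5:**
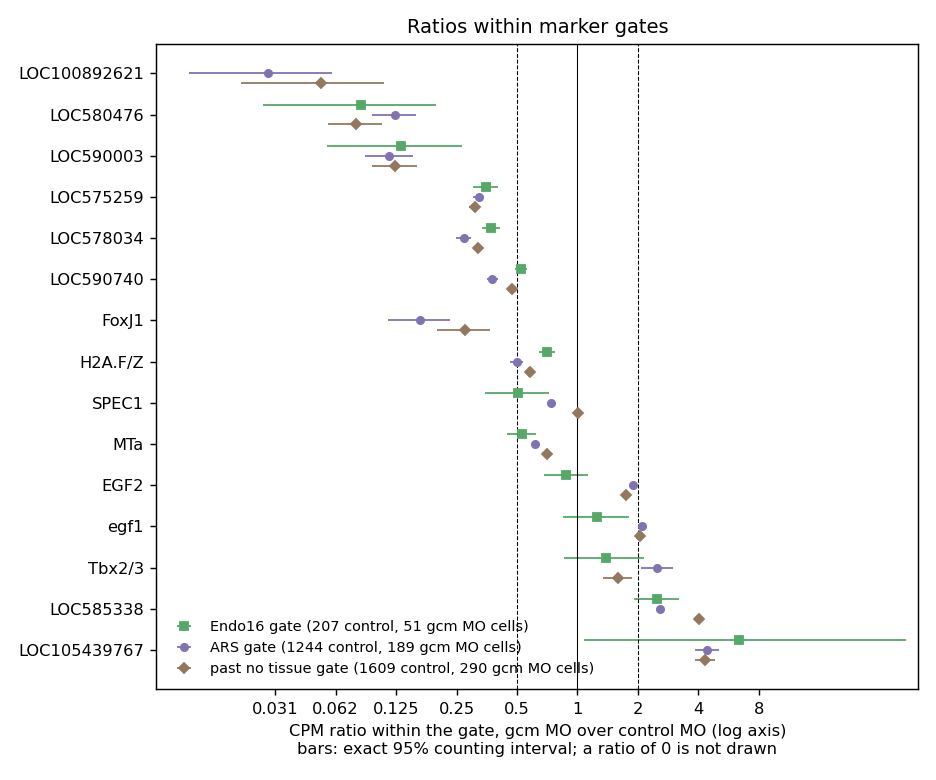
CPM ratio of gcm MO over control MO (x axis, log) for 15 genes (y axis) within Endo16-gated, ARS-gated and ungated cells, with exact 95% counting intervals as bars. LOC580476, LOC590003 and LOC575259 lie below 0.5 and LOC585338 and LOC105439767 above 2 in all 3 sets of cells, the Endo16-gated value of LOC105439767 resting on 3 and 4 UMIs, and egf1 lies at 2.09 in ARS-gated and 1.25 in Endo16-gated cells.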

How the data were processed

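The authors prepared 10x droplet libraries, used Cell Ranger (software version 3.1.0 in the matrix headers) and a custom Spur_4.2 reference to count UMIs, and deposited these counts unnormalized for every called cell. Their own later analysis used Seurat 3.1.4, per the submitters' notes. From the deposited counts, cells were filtered as the report describes and UMIs were summed per library and expressed as CPM, with exact Poisson (CPM), conditional binomial (ratios) and Clopper-Pearson (shares) intervals at 95% (scipy 1.17.1 and numpy 2.4.6 under Python 3.11.15, tables with pandas 2.3.3). PCR and cell capture are not covered by these intervals. The libraries held 8862874 (control MO) and 1809784 (gcm MO) UMIs, so that the precision is set by the gcm MO library. No test across samples was made, since each MO has 1 library. The interval calculation was tested on simulated counts.

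A gene was tested for size with at least 200 UMIs over both MO libraries and called past 2-fold. Named were 10 genes at each end of the ranking by ratio, 5 at each end of the ranking by difference in CPM, and members of gene lists. Members under 200 UMIs are given by their UMIs, which are not scaled to the size of the library. The genes of the pigment rule are no results within the kept cells. The cells, lists and alternatives were chosen with earlier results of these data known. Lists hold genes found by symbol, or for the cell cycle by the identifiers in the study's supplement, so most of a pathway can be missing where its genes carry LOC identifiers. No ratio within a gate is given for the genes used for that gate. The shares of skeletogenic UMIs given for skeletogenic-gated cells follow in part from the definition of the gate. The value of 1 listed gene is not reported here.

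Alternatives were other filters on cells and UMIs, edgeR 4.0.16 TMM and DESeq2 1.42.0 size factors (R 4.3.3), means over cells, thinning to 1000 UMIs, gate thresholds and shares, and doublets removed. Scrublet (scanpy 1.11.5) called 23 of the 3118 cells with the control MO (0.738%) and 11 of the 533 with the gcm MO (2.06%), which stay in the reported values. Mitochondrially encoded genes were not found by symbol, so the alternative that leaves them out removed 3 ribosomal protein genes only.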

Additional observations from a re-analysis of the deposited data

How the results depend on the processing

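No paired analysis was possible because each MO has 1 library. For the same reason no library could be left out, and the spread between embryo batches is unknown; the 533 gcm MO cells, and within them the 3 skeletogenic cells, limit the depth. Of 1744 ratios of 109 named genes under 16 alternatives, 1308 moved by less than their counting interval, 433 moved by more, and 3 of called genes turned direction: SM30A (1.19) and SM37 (1.13) with the gate shares of the control MO, and SM37 (1.19) without skeletogenic-gated cells. Of the 40 named genes past 2-fold, 24 stayed past it in every alternative. The alternatives with cells of at least 1000 UMIs, control MO cells weighted to the UMIs per cell of the gcm MO, and skeletogenic-gated cells left out were chosen after seeing the data. Where no cause is evident from how an alternative is built, the cause was not tested.

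Genes higher and lower past 2-fold (306 and 245) were 105 and 450 with TMM, 108 and 448 with DESeq2 size factors, 551 and 379 with a minimum of 100 UMIs, 125 and 149 with 500, 4288 and 5024 with 1, 1048 and 573 at 1.5-fold, 38 and 86 at 3-fold, and 116 and 121 with the whole interval beyond 2. UMI weighting gave 506 higher.

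List medians (log2) were, for the skeletogenic list, -0.91 with 200 to 2500 genes per cell, -2.25 thinned, 0.050 with control MO gate shares and -0.73 without gated cells. For the collagens they were -1.65 with 200 to 2500 genes, -0.86 for means over cells, -2.29 with TMM and -2.29 with DESeq2, -1.65 with gate shares, -2.48 at 1000 UMIs or more, -2.53 with UMI weighting and -1.49 without skeletogenic-gated cells. For the gut they were 1.05 without a filter on genes, 1.06 without its upper limit, 0.93 for means over cells, 0.76 thinned, 0.23 with TMM and 0.23 with DESeq2, 0.15 with gate shares and -0.72 with UMI weighting. For the aboral ectoderm they were -0.022 without a filter, -0.0100 without the upper limit, -0.057 for means over cells, -0.037 thinned, -0.098 with TMM, -0.094 with DESeq2 and 0.50 with UMI weighting. For the oral ectoderm they were -0.21 with both scalings and 0.76 with UMI weighting, for neural genes -0.49 with TMM, for homeobox and forkhead genes 0.58 with UMI weighting, and for the cell cycle 0.20 without a filter, 0.20 without the upper limit and -0.34 with both scalings.

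With gate thresholds halved and doubled, ARS gates held 49.8% and 19.4% of control MO and 46.2% and 9.94% of gcm MO cells, and cell cycle gates 36.3% and 4.71% against 40.9% and 4.69%. The Endo16 gate held 8.18% and 3.66% of control MO cells, and doubled 6.94% of gcm MO cells.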
